A study of Mus musculus with 6 samples.

Results

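The 40 genes described here encode Toll-like receptors, the proteins that carry their signal, the NF-kB transcription factors and the genes that NF-kB induces to limit or execute the response. They were chosen by name from the pathway, by a rule that used no measured value, though with earlier results of these data known, and all 40 were among the 10551 genes of the deposited count table. The table holds RNA sequencing of bone marrow-derived macrophages, which differentiate from marrow progenitors in a dish, from C57BL/6J mice. Of the 6 libraries, 3 were of control macrophages and 3 of macrophages labelled as a macrophage-specific knockout of Dhps (Dhps_delta_Myel), the gene of deoxyhypusine synthase, which makes the first step of hypusine formation on eIF5A. The labels name no stimulus, age, Cre driver or deleted exon, and whether replicate libraries derive from different mice or dishes is not given, so the p-values measure only the spread between these libraries, which may be technical. The series' title places the question in the pro-inflammatory state of macrophages.

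Toll-like receptors recognise microbial molecules at the cell surface or in endosomes. They signal through the adaptors Myd88 and Ticam1. On the Myd88 route they activate the IRAK kinases, Traf6 and Map3k7, and then the IkB kinase complex. This complex marks the inhibitory IkB proteins for degradation and so frees NF-kB dimers to enter the nucleus. NF-kB then induces its own inhibitors, and this negative feedback is a textbook feature of activated macrophages. These steps act largely on proteins, and the data here are transcript levels.

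Promoter sequences are shown because several members are themselves known NF-kB targets, and the kappaB site is the DNA element that NF-kB dimers bind. Promoter windows from 250 bases before to 50 bases after the start site were taken from RefSeq (GRCm38.p6, the assembly of mm10) and searched on both strands for the kappaB consensus. 32 of the 40 members had a window. Those without were Nfkb1, Relb, Nfkbiz, Ikbkb, Cd14, Tlr4, Tlr7 and Ripk2. A match was present in 11 of the 32 members (34.4%), against 516 of 8086 tested genes with a window (6.38%). Counted by window, 13 of 43 member windows held a match, against 1480 of all 32851 windows (4.51%). These shares are descriptions, as known NF-kB targets were among the genes chosen. A match describes letters and is not a shown binding site. The matches of the feedback genes Nfkbia, Nfkbie, Tnfaip3, Tnip1, Tnip3 and Bcl3, of the precursor gene Nfkb2, of the kinase gene Map3k7 and of the target Sod2 are given with their neighbouring bases, 5′ to 3′ on the strand of the gene and in lower case, with the letters that match the consensus in capitals. Nfkb2 had 3 windows, and its matches in all of them are shown.
Nfkbia, chr12:55492657-55492686, minus strand: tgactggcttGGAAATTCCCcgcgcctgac
Nfkbie, chr17:45555584-45555613, plus strand: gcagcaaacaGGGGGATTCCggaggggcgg
Tnfaip3, chr10:19015516-19015545, minus strand: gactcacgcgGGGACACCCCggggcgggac
Tnfaip3, chr10:19015403-19015432, minus strand: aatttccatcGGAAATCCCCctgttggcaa
Tnip1, chr11:54962977-54963008, minus strand: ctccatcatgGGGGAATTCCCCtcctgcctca
Tnip3, chr6:65590334-65590363, plus strand: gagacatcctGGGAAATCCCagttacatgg
Bcl3, chr7:19822734-19822763, minus strand: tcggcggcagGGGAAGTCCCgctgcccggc
Nfkb2, chr19:46304688-46304745, plus strand: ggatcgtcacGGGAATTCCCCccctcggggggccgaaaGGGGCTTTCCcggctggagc
Nfkb2, chr19:46305449-46305478, plus strand: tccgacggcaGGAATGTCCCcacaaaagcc
Nfkb2, chr19:46305695-46305724, plus strand: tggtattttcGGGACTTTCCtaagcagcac
Map3k7, chr4:31964005-31964034, plus strand: ccccgggtcaGGAAATTCCCcgctcgggtc
Sod2, chr17:13007746-13007775, plus strand: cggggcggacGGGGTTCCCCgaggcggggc

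The whole windows of Rel and Tlr2 are shown because these were the 2 members with an unadjusted p under 0.05, and both hold the consensus. Capitals mark the matches, of which Rel had 1 place and Tlr2 had 2.
Rel, chr11:23770920-23771219, minus strand: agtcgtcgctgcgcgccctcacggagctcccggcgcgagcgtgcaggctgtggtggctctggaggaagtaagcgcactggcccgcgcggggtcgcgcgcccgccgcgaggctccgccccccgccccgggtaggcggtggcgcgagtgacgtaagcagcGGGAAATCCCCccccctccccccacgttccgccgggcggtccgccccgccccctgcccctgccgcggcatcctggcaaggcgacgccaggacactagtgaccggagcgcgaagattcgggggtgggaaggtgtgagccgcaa
Tlr2, chr3:83841559-83841858, minus strand: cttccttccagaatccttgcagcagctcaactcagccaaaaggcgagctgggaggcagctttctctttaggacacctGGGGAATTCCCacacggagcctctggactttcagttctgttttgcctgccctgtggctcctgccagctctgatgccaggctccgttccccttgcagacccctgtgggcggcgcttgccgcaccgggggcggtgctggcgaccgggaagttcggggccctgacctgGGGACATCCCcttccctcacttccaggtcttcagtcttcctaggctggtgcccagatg
The 11 members with a match had log2 fold changes from -0.21 (Tlr2) to 0.26 (Rel), 6 above 0 and 5 below, with a median of 0.019. The 21 members without one had a median of 0.0020. These medians are descriptions, with no test.

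None of the 40 members passed the threshold of an adjusted p under 0.05 in edgeR's quasi-likelihood test over all genes, where 11 of 10551 genes (0.104%) did, 10 of them higher in the knockout (0.0948%) and 1 lower (0.00948%). At an unadjusted p under 0.05, 1 member was higher (Rel) and 1 lower (Tlr2), beside 3.84% of all genes higher, 2.64% lower and 6.48% in either direction, so the members' count was near the background. DESeq2 and limma-voom called 0 members as well, each with 2 at an unadjusted p under 0.05. Log2 fold changes (Dhps knockout over control) were above 0 for 20 members and below 0 for 20, with a median of -0.0055, and the median over all genes was -0.0044. They ran from -0.21 in Tlr2 to 0.35 in Tlr9. The libraries of the groups did not overlap for 4 members, Rel being higher in each knockout library and Tlr2, Ikbkg and Birc3 lower, beside 5.73% of all genes with the knockout higher, 5.45% with it lower and 11.2% in either direction.

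The members were measured more tightly than most genes. Their median SE was 0.094 log2 units, against 0.13 over all genes, and the median member lay at the 89.2 percentile of mean CPM (counts scaled to a common library size). The 95% interval of the log2 fold change lay within 1.5-fold either way for 39 of 40 members, against 71.9% of all genes, and within 2-fold for all 40. The exception at 1.5-fold was Tlr9, the least abundant member, with 38 counts in its lowest library. For the other 39, a change of 1.5-fold or more thus lay outside the interval. In the plot of fold changes by role, intervals of all roles straddle or lie close to 0.

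**Figure D1:**
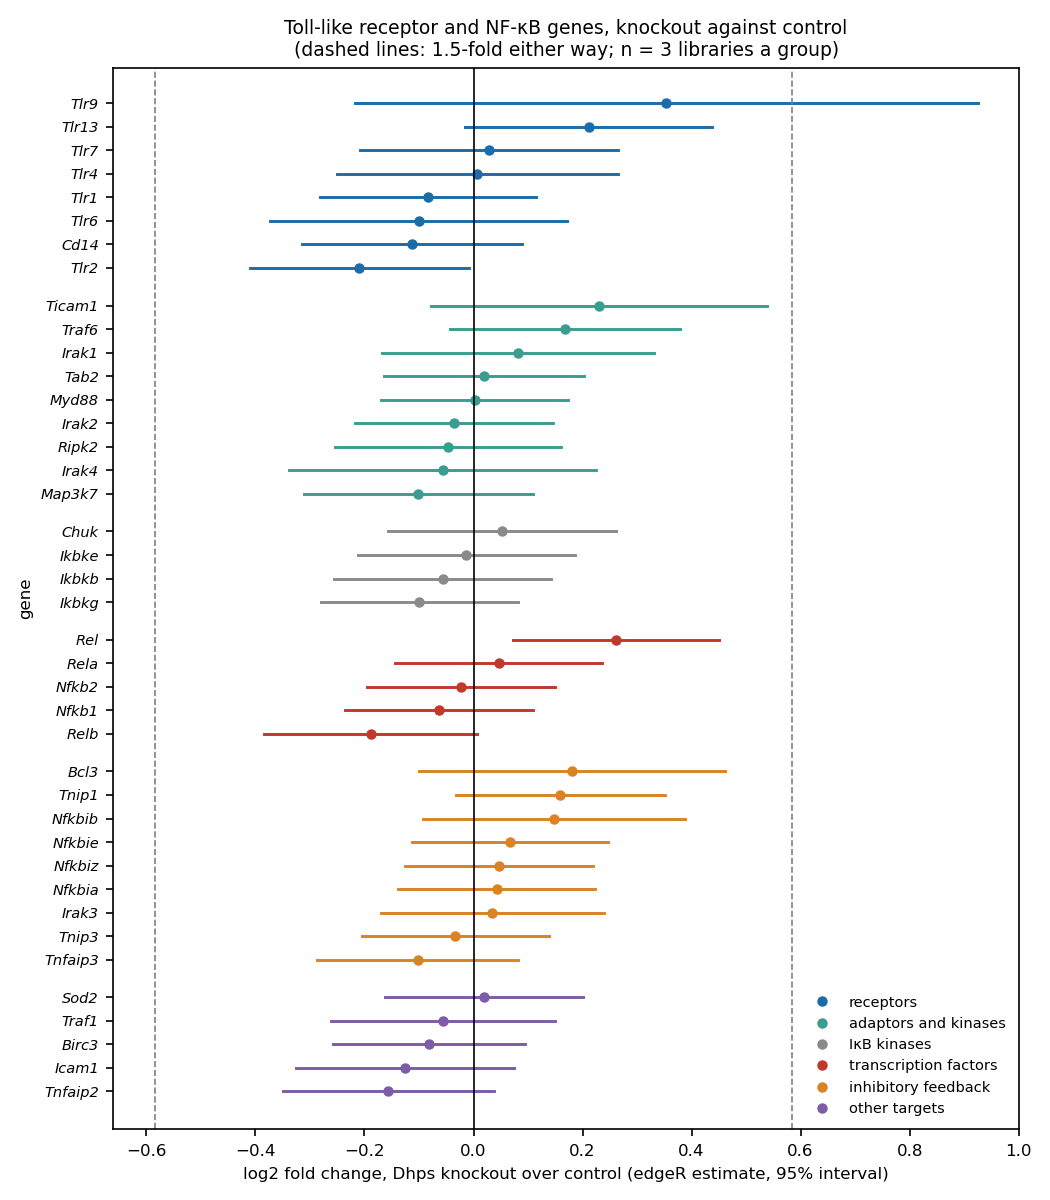
Log2 fold change of each of the 40 genes (x axis, Dhps knockout over control, n = 3 libraries a group) with its 95% interval, grouped by role. Only the intervals of Rel (0.072 to 0.45) and Tlr2 (-0.41 to -0.0083) exclude 0, and only that of Tlr9 passes the dashed line at 1.5-fold.

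Receptors are the entry to the pathway. The median log2 fold change of the 8 receptor genes was -0.038, 4 above 0 and 4 below, and none passed. Levels of different genes are compared per length, as normalized CPM per kilobase of summed exon length, over all 6 libraries (mean ± SD, n = 6). Cd14, the co-receptor that hands lipopolysaccharide to Tlr4, stood highest at 402 ± 36.8, followed by Tlr2, which binds bacterial lipoproteins, at 94.8 ± 10.3, and by the endosomal RNA sensor Tlr7 at 48.3 ± 5.75. Each of these was separated from the next gene in the order with no overlap of libraries. Tlr1 (31.5 ± 2.13) and Tlr6 (26.3 ± 3.91), the partners of Tlr2, overlapped, as did Tlr6 and Tlr13 (20.8 ± 2.65), a sensor of bacterial ribosomal RNA. Tlr4, the lipopolysaccharide receptor, lay below them at 14.1 ± 1.76, and Tlr9, the sensor of unmethylated CpG DNA, stood lowest at 1.26 ± 0.358.

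**Figure D2:**
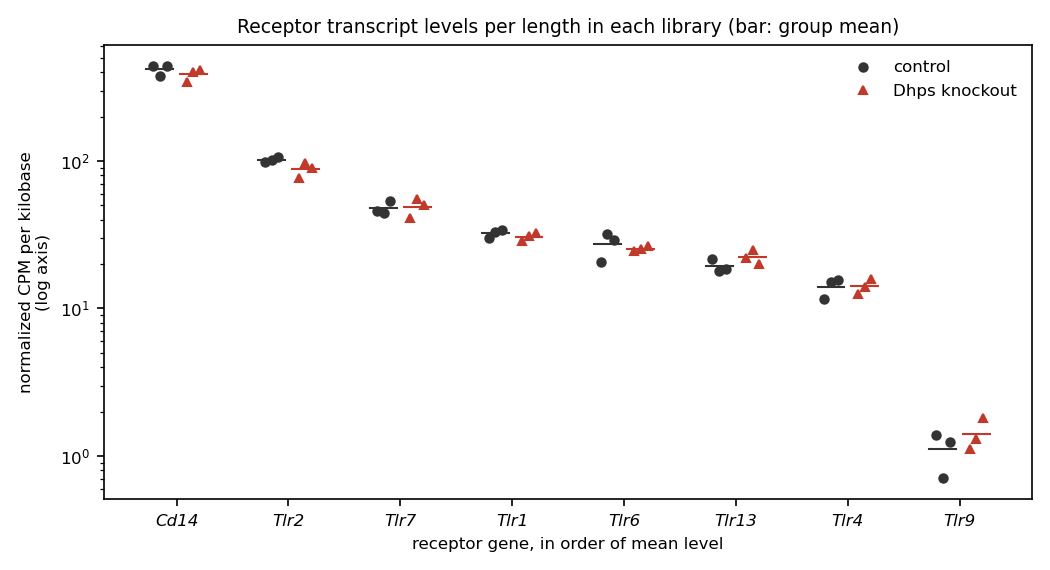
Normalized CPM per kilobase (log axis) of the 8 receptor genes in each of the 3 control and 3 Dhps knockout libraries, with a bar at each group mean. Genes span from Cd14 near 402 to Tlr9 near 1.26, and groups overlap for each gene except Tlr2.

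Tlr2 (chr3:83836272-83841608 in mm10, minus strand) lay at 279.8, 288 and 303 CPM in control libraries 1 to 3 and 219, 277 and 257 CPM in knockout libraries 1 to 3. Each knockout library was below each control library, with knockout library 1 farthest down and knockout library 2 only just below the lowest control. The difference did not pass (log2 fold change -0.21, SE 0.095, 95% interval -0.41 to -0.0083, adjusted p = 0.749). With each library left out in turn the log2 fold change of Tlr2 stayed below 0, from -0.29 to -0.12, the smaller size coming without knockout library 1. Its partners also had estimates below 0 and overlapping libraries, Tlr1 with -0.084, adjusted p = 0.939 and Tlr6 with -0.10, adjusted p = 0.951. Tlr6 ranged from 53.7 CPM in control library 1 to 83.2 CPM in control library 2, a spread inside the control group larger than its difference between groups, and its log2 fold change was -0.27 to 0.037 with 1 library left out. Tlr1 and Tlr6 are close paralogs. Of the 50-base stretches of the longest Tlr1 transcript in the GENCODE M21 annotation, 15.3% also occurred in Tlr6, so reads could have been shared or lost between them.

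Tlr13 lay at 86.8, 71.9 and 73.7 CPM in control libraries 1 to 3 and 88.6, 100.5 and 80.3 CPM in knockout libraries 1 to 3. Knockout library 2 was the highest and the groups overlapped (log2 fold change 0.21, SE 0.11, 95% interval -0.015 to 0.44, adjusted p = 0.820). Cd14 was at 727, 623 and 729.6 CPM in control libraries 1 to 3 and 573, 668 and 683 CPM in knockout libraries 1 to 3, overlapping between groups (-0.11, adjusted p = 0.909). Tlr4 was at 44.3, 58.2 and 59.9 CPM in control libraries 1 to 3 and 48.3, 53.7 and 61.0 CPM in knockout libraries 1 to 3, and the estimate sat close to 0 (0.0067, 95% interval -0.25 to 0.26). Tlr7 likewise had 0.029, 95% interval -0.21 to 0.27. Tlr9 was at 4.78, 2.44 and 4.35 CPM in control libraries 1 to 3 and 3.85, 4.49 and 6.25 CPM in knockout libraries 1 to 3, where control library 2 was the lowest and knockout library 3 the highest. It had the largest estimate and the widest interval of all 40 (log2 fold change 0.35, SE 0.27, 95% interval -0.22 to 0.92, adjusted p = 0.899). Without control library 2 the estimate was 0.10 and without control library 1 it was 0.55, the ends of the range with 1 library left out, and without knockout library 3 it was 0.13.

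Adaptors and kinases pass the signal from receptor to IkB kinase. The 9 genes had a median of 0.0020, 5 above 0 and 4 below, and none passed. Myd88, the adaptor of nearly all Toll-like receptors, lay at 211, 211 and 208 CPM in control libraries 1 to 3 and 212, 208 and 211 CPM in knockout libraries 1 to 3. All 6 libraries were within a few CPM of each other, and the interval was -0.17 to 0.17. Of its exonic bases 11.7% are also exonic in Acaa1a on the opposite strand, and whether strand was used in counting is not stated. Ticam1, the adaptor of the Tlr3 and Tlr4 route to interferon, was at 15.3, 15.7 and 18.5 CPM in control libraries 1 to 3 and 20.6, 15.3 and 21.8 CPM in knockout libraries 1 to 3 (0.23, adjusted p = 0.864). Its knockout library 2 was level with the lowest control library while the other knockout libraries were above all controls, so the groups overlapped. Traf6, a ubiquitin ligase, had 0.17, adjusted p = 0.859, with its lowest knockout library (41.0 CPM) below the highest control (42.0 CPM).

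Among the IRAK kinases, Irak2 was the most abundant per length (59.1 ± 2.69 CPM per kilobase, n = 6), well above Irak1 (11.8 ± 1.44) and Irak4 (6.66 ± 0.731). Their log2 fold changes were -0.036, 0.082 and -0.057, with overlapping libraries in each. Ripk2, the kinase downstream of Nod receptors, lay at 81.1 ± 6.81 per kilobase and overlapped Tab2 (78.6 ± 4.25), the ubiquitin-binding partner of Map3k7. Ripk2 (-0.047), Tab2 (0.019) and Map3k7 (-0.10) did not pass. The 4 genes of IkB kinases had a median of -0.035. Ikbke, an inducible kinase related to the complex, stood at 81.0 ± 6.21 CPM per kilobase, above the complex's own subunits Ikbkg (15.4 ± 0.669), Ikbkb (14.7 ± 0.763) and Chuk (12.8 ± 0.777), which overlapped in that order. Ikbkg, the regulatory subunit, was lower in each knockout library (117, 115 and 113 CPM in control libraries 1 to 3 and 104, 110.4 and 108 CPM in knockout libraries 1 to 3), but the difference was about the size of its SE and did not pass (-0.099, adjusted p = 0.910). Of its exonic bases 1.95% are shared with G6pdx on the opposite strand. Ikbkb (-0.057), Ikbke (-0.013) and Chuk (0.052) overlapped.

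The median log2 fold change of the 5 NF-kB subunit genes was -0.023, 2 above 0 and 3 below. Rel (chr11:23741729-23770970 in mm10, minus strand), which encodes c-Rel, a transactivating subunit prominent in blood cells, lay at 107, 106 and 117 CPM in control libraries 1 to 3 and 124, 134 and 136 CPM in knockout libraries 1 to 3. Each knockout library was above each control library. Rel had the smallest p of the 40 members but did not pass over all genes (log2 fold change 0.26, SE 0.089, 95% interval 0.072 to 0.45, adjusted p = 0.568). Its log2 fold change ranged from 0.24 to 0.31 with 1 library left out, and over the 14 alternatives its adjusted p ran from 0.261 (replicate number as a block) to 0.977. Relb, the subunit of the non-canonical pathway, was at 114, 114 and 99.9 CPM in control libraries 1 to 3 and 101, 93.5 and 93.2 CPM in knockout libraries 1 to 3. Control library 3 fell below knockout library 1, so the groups overlapped (log2 fold change -0.19, SE 0.093, 95% interval -0.38 to 0.0069, adjusted p = 0.802).

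Rela, the main transactivating subunit, lay at 149, 131 and 141 CPM in control libraries 1 to 3 and 154, 138 and 142 CPM in knockout libraries 1 to 3 (0.046, 95% interval -0.14 to 0.24). Nfkb1 was at 1099, 1003 and 1041 CPM in control libraries 1 to 3 and 998, 1010.4 and 1000.5 CPM in knockout libraries 1 to 3 (-0.063, 95% interval -0.24 to 0.11), with the knockout libraries close together and inside the control range or just under it. Nfkb2 had -0.023, 95% interval -0.20 to 0.15. The genes of the 2 precursor proteins were the most abundant per length, Nfkb1 at 249 ± 9.64 and Nfkb2 at 192 ± 6.09 CPM per kilobase (n = 6), while Rela (52.5 ± 2.96), Relb (46.7 ± 4.29) and Rel (46.7 ± 5.11) overlapped. Of the summed level of the 5 genes per length, Rel made up 7.18% ± 0.53 in control and 8.74% ± 0.41 in knockout libraries (SD, n = 3 each), and Relb 8.41% ± 0.67 and 7.50% ± 0.38. Nfkb1 made up 43.0% ± 0.38 and 41.8% ± 0.26. These shares restate the same counts and carry no test of their own.

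**Figure D3:**
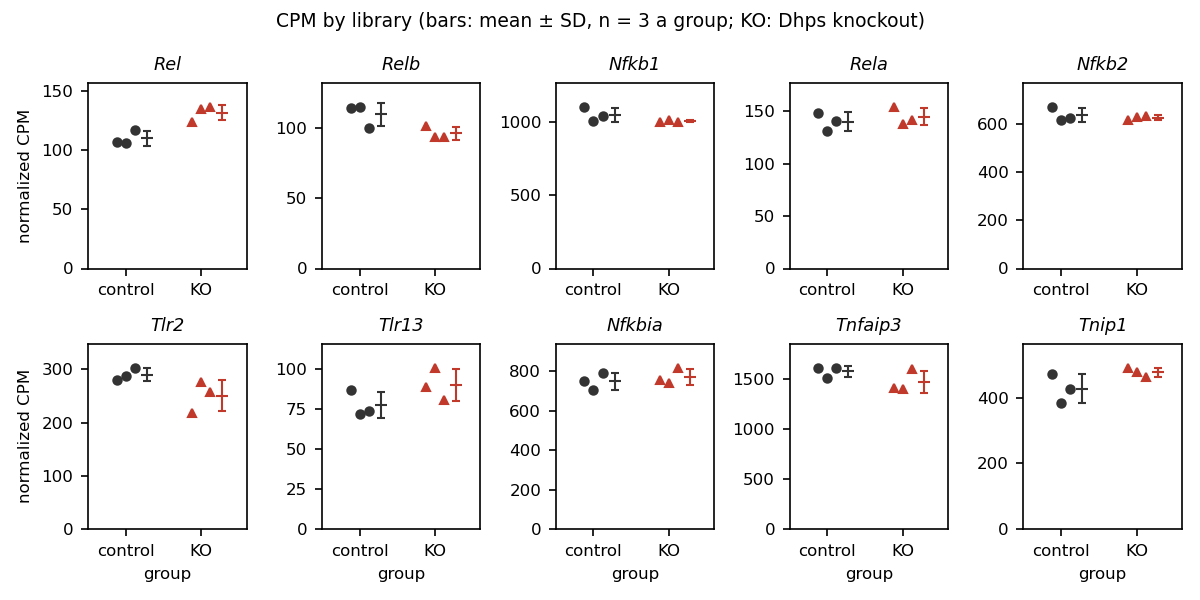
Normalized CPM (y axis from 0) of 10 genes in each library, with the mean ± SD of each group (n = 3). The panels show the 5 NF-kB subunits, Tlr2, Tlr13, Nfkbia, Tnfaip3 and Tnip1, and the groups part without overlap only for Rel (higher in knockout) and Tlr2 (lower).

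Inhibitory feedback genes limit the response. The median log2 fold change of these 9 genes was 0.047, 7 above 0 and 2 below, and none passed. Nfkbia, the archetypal IkB protein and a rapid NF-kB target, had the highest level per length (481 ± 24.9 CPM per kilobase, n = 6) and lay at 749.8, 705 and 792 CPM in control libraries 1 to 3 and 754, 743 and 817 CPM in knockout libraries 1 to 3. Its groups overlapped (0.042, 95% interval -0.14 to 0.22). Tnfaip3, a ubiquitin-editing enzyme that shuts off signalling at Traf6 and related proteins, was at 1610.0, 1509.8 and 1605 CPM in control libraries 1 to 3 and 1403, 1401 and 1597 CPM in knockout libraries 1 to 3. Knockout libraries 1 and 2 were below the controls and knockout library 3 among them (log2 fold change -0.10, SE 0.087, 95% interval -0.29 to 0.082, adjusted p = 0.909). Its partner Tnip1 went the other way in its estimate, at 474, 384 and 427 CPM in control libraries 1 to 3 and 492, 478 and 465 CPM in knockout libraries 1 to 3 (log2 fold change 0.16, SE 0.091, 95% interval -0.033 to 0.35, adjusted p = 0.840). Knockout library 3 lay below control library 1, so these groups overlapped too.

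The related Tnip3 had a control mean of 922 ± 28.9 CPM and a knockout mean of 900.5 ± 19.2 CPM (SD, n = 3 each; -0.033, 95% interval -0.20 to 0.14). Nfkbie, another IkB protein, had 0.067, 95% interval -0.11 to 0.25, and Nfkbiz, a nuclear IkB protein that also acts as a coactivator, 0.047, 95% interval -0.13 to 0.22. Nfkbib had 0.15, adjusted p = 0.900, with knockout library 1 (39.8 CPM) below and the other knockout libraries (54.8 and 50.8 CPM) above the control libraries, which lay between 43.3 and 43.9 CPM. Of its exonic bases 14.8% are shared with Ccer2 on the opposite strand. Bcl3, a nuclear IkB protein that binds homodimers, had 0.18, adjusted p = 0.896, and Irak3, the IRAK without kinase activity that restrains the pathway, 0.034, 95% interval -0.17 to 0.24. Per length, Tnfaip3 (331 ± 21.6) stood below Nfkbia with no overlap, and Nfkbib (21.7 ± 2.62), Bcl3 (18.2 ± 2.80) and Irak3 (17.3 ± 0.967) formed a low, overlapping end.

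The remaining 5 members are targets of NF-kB with other functions, and had a median of -0.081, 1 above 0 and 4 below. Tnfaip2 was the most abundant member, at 6708, 6024 and 5793 CPM in control libraries 1 to 3 and 5874, 5588 and 5165 CPM in knockout libraries 1 to 3. Its lowest control library was below the highest knockout library (log2 fold change -0.16, SE 0.091, 95% interval -0.35 to 0.037, adjusted p = 0.853). Icam1, the adhesion ligand of leukocyte integrins, was at 2625, 2372 and 2588 CPM in control libraries 1 to 3 and 2045, 2517 and 2389.8 CPM in knockout libraries 1 to 3 (-0.13, adjusted p = 0.899). Knockout library 1 was the lowest, and 19.3% of the gene's exonic bases are shared with the antisense gene model Gm47079. Birc3, an inhibitor of apoptosis and ubiquitin ligase, was at 205, 203 and 218 CPM in control libraries 1 to 3 and 198, 192 and 202 CPM in knockout libraries 1 to 3. The groups did not overlap, with knockout library 3 just under the lowest control, and the difference did not pass (-0.081, 95% interval -0.26 to 0.094). Traf1 (-0.056, 95% interval -0.26 to 0.15) and Sod2, the mitochondrial superoxide dismutase (0.019, 95% interval -0.16 to 0.20), overlapped.

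Receptors and adaptors were set against transcription factors and inhibitory feedback genes. The median log2 fold change of the first set, 17 genes, was 0.0020, 9 above 0 and 8 below. The median of the second set, 14 genes, was 0.044, 9 above 0 and 5 below. The medians differed by -0.042. The same difference taken per library, from each gene's deviation from its own mean, was -0.096, 0.089 and 0.055 in control libraries 1 to 3 and -0.024, 0.00074 and -0.0060 in knockout libraries 1 to 3. The knockout libraries all lay inside the range of the controls, and the spread within groups (pooled SD 0.070) was larger than the difference between the medians. With control library 2 left out the difference was 0.0034, and with knockout library 2 left out -0.067. The difference between the sets was thus within the spread of the libraries.

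The spread between libraries was uneven. Knockout library 1 held the lowest value of the 6 libraries for 12 of the 40 members and 4 of the 8 receptors, and the median receptor there lay 0.15 log2 units below its own mean (-0.15), while control library 3 had the median receptor at 0.14. The receptor genes lowest in knockout library 1 were Tlr2, Cd14, Tlr1 and Tlr7. Over all genes the median deviation in knockout library 1 was 0.0026, and how often this library held the lowest value was not counted. Knockout libraries 2 and 3 had the median receptor at 0.024 and 0.041. Summed over the 40 members, their share of all counts was between 1.95% and 2.02% in control and between 1.90% and 1.92% in knockout libraries. Each knockout library was thus below each control library in this sum, which the most abundant members dominate.

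**Figure D4:**
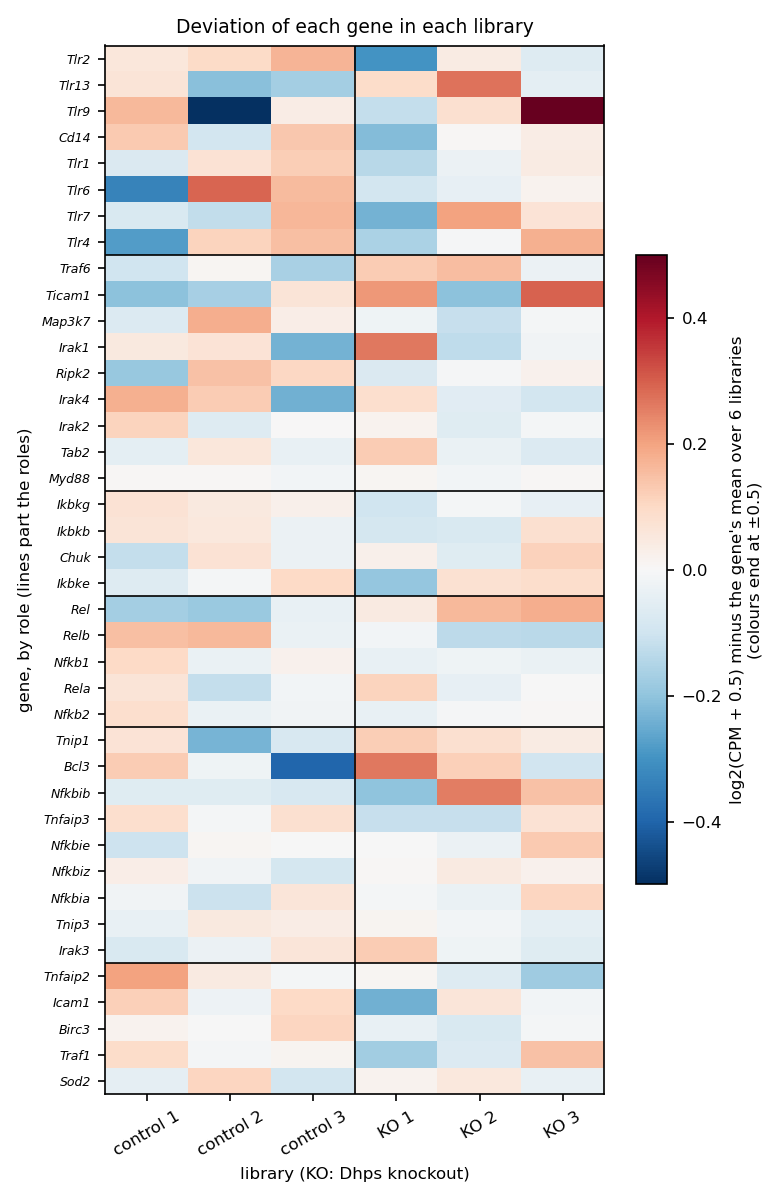
Log2(CPM + 0.5) of each gene (rows, by role) in each library (columns) minus the gene's mean over the 6 libraries, on a colour scale that ends at 0.5 either way. No block of one colour fills a group across a role, and the darkest cells belong to Tlr9 in control library 2 and knockout library 3.

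Other genes of the pathway likewise had 0 that passed. Of 69 listed receptors, adaptors, kinases and regulators outside the 40 members, 64 were in the table and 0 passed with edgeR, with 5 at an unadjusted p under 0.05, beside 6.48% of all genes, and a median log2 fold change of -0.0086. With DESeq2 and limma-voom 0 passed, with 4 and 6 at an unadjusted p under 0.05. The 5 with the smallest p were Ly86, which pairs with the Toll-like protein Cd180 (-0.39, adjusted p = 0.414), Ticam2, which bridges Tlr4 to Ticam1 (0.43, adjusted p = 0.533), the kinase Map2k3 (0.26, adjusted p = 0.617), the RNase and feedback regulator Zc3h12a (0.28, adjusted p = 0.672) and the lipopolysaccharide-binding protein gene Lbp (0.69, adjusted p = 0.749), which lay near the floor of the table at 1.38 CPM in control libraries.

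Of 36 further NF-kB target genes 0 passed with edgeR, with 3 at an unadjusted p under 0.05, beside 6.48% of all genes. Of their estimates 12 were above 0 and 24 below (66.7%, against 51.3% of all genes), with a median of -0.033. Knockout library 1 stood apart for this list, with a median deviation of -0.090, against 0.035 and 0.043 in knockout libraries 2 and 3 and -0.0036 to 0.034 in the controls. DESeq2 and limma-voom also called 0, each with 3 at an unadjusted p under 0.05. The smallest p belonged to Kdm6b, a histone demethylase, with a control mean of 47.0 ± 7.11 CPM and a knockout mean of 62.9 ± 6.50 CPM (log2 fold change 0.42, SE 0.12, 95% interval 0.17 to 0.67, adjusted p = 0.366). Mefv, which encodes pyrin (0.40, adjusted p = 0.462), Ptges, the inducible prostaglandin E synthase (-0.44, adjusted p = 0.561), the co-stimulatory receptor Cd40 (-0.20, adjusted p = 0.838) and the lectin receptor Clec4e (-0.21, adjusted p = 0.848) followed. Ptges passed without control library 1 (-0.62, adjusted p = 0.043).

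The libraries held 11648710 to 16224818 counts. Dhps itself lay at 24.1, 20.9 and 23.4 CPM in control libraries 1 to 3 and 13.2, 13.6 and 18.3 CPM in knockout libraries 1 to 3, lower in each knockout library but not past the threshold (log2 fold change -0.59, SE 0.14, 95% interval -0.89 to -0.30, adjusted p = 0.214), and counts over all exons can include reads from outside a deleted part. Of 10 macrophage markers all were measured, and 1 fell, Lyz2 (-1.04, adjusted p = 7.2e-05). The summed level of the other 9 was 5956 to 6361 CPM in control and 5501 to 6413 CPM in knockout libraries. Among these, C1qa (-0.28), Fcgr1 (-0.33) and Adgre1 (-0.18) were lower in each knockout library without passing. With Lyz2, 4 of the 10 markers were lower without overlap and 0 higher, beside 5.45% and 5.73% of all genes. Of 14 neutrophil and precursor markers 13 were measured and 5 rose, led by Ngp, S100a8 and Lcn2. The summed level of the 13 was 845 to 1167 CPM in control and 1351 to 1589 CPM in knockout libraries. The largest part of this sum was Mmp9, with a control mean of 531 CPM and a knockout mean of 659 CPM. Its groups overlapped and it did not pass (0.31, adjusted p = 0.672). Neutrophils and monocytes express several of the genes described here, and in a bulk sample fewer cells of a type and less RNA per cell cannot be told apart. Of 6 monocyte markers 0 passed, Plac8, Hp and Spn having the smallest p, with summed levels of 33.3 to 36.2 and 44.7 to 58.7 CPM. Among 6 stromal markers 3 were in the table, and Col1a2 and Sparc rose, beside Pdgfrb, which did not pass. Summed levels of the 3 were 3.73 to 5.04 CPM in control and 7.22 to 11.3 CPM in knockout libraries. Control libraries 1 to 3 held Col1a2 at 0.14, 0.51 and 0.52 CPM and Sparc at 0.64, 0.32 and 0.78 CPM. As each gene of the table exceeded 1 CPM in at least 3 libraries, both were listed only through the knockout libraries. A higher level there was thus a condition of their listing. Mast cell and basophil (4 of 6 measured), megakaryocyte and platelet (5 of 5), B and plasma cell (2 of 5, Jchain and Cd79b), dendritic cell (3 of 6) and endothelial (2 of 4) markers had 0 that passed. Mast cell and basophil log2 fold changes were 2.00 in Mcpt8, 1.70 in Prss34, 0.11 in Kit and -0.11 in Cpa3. Megakaryocyte and platelet ones were 0.77 in Ppbp, 0.64 in Itga2b, 1.54 in Tubb1, 1.11 in Gp9 and -0.29 in Pf4. Pf4 made up most of that list's summed levels, 1421 to 1713 CPM in control and 1195 to 1327 CPM in knockout libraries. Mcpt8, Prss34, Tubb1 and Gp9 were under 1 CPM in each control library and above it in each knockout library. A higher level in the knockout was thus a condition of their listing too. T and NK cell (0 of 5) and erythroid (0 of 4) markers were not measured. The part of these other cells in the members' values was not tested.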

How the data were processed

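The authors deposited 1 table of raw counts per gene, which also lists exon positions and exon length, for 3 control and 3 Dhps knockout libraries. Per the submitters' processing notes the build was mm10 and the tools included featureCounts (Subread 1.5.0 is listed), STAR 2.4.2a and edgeR, with no stated role or order. The annotation and the use of strand are not given in the sources used here. Every gene exceeded 1 CPM in at least 3 libraries of the deposited table, so low genes were not analysed here. Counts were normalized by TMM and tested with edgeR 4.0.16 (R 4.3.3) by its quasi-likelihood test, with Benjamini-Hochberg adjustment over all 10551 genes and a threshold of 0.05. A filter at a minimum count of 10 removed 0 genes. SEs are the log2 fold change over the square root of F. Alternatives used DESeq2 1.42.0, limma 3.58.1, other scalings and filters, a replicate block and each library left out. The code was tested on simulated data. Members and lists were chosen with earlier results of these data known. All 40 members are named, with the 5 genes of smallest p from each of the other pathway and NF-kB target lists, Dhps, and the 3 markers of smallest p of each other cell type whose median was beyond 0.3. A few further markers are named to qualify what is said of their lists.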

Additional observations from a re-analysis of the deposited data

How the results depend on the processing

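Over 14 alternatives none of the 40 members passed. Of 560 member results, 537 kept their direction and side of the threshold, and 23, from 14 members with a log2 fold change of at most 0.10 in size, changed direction without passing. Rel ranged from 0.24 to 0.31. All genes called numbered 11, against 22 with DESeq2, 7 with Lyz2 left out of the counts and 4 to 19 with 1 library left out, the fewest without control library 2 (4) and control library 3 (7) and the most without control library 1 (19). NF-kB target genes called numbered 0 to 1 with 1 library left out. With the replicate number as a block, 35 genes were called, among them 0 members and 1 NF-kB target gene (Kdm6b, 0.42, adjusted p = 0.038), and Dhps had an adjusted p of 0.033. Same-numbered libraries correlated at 0.158, 0.022 and 0.156 in their deviations, and differently numbered ones at -0.208 to 0.079. The labels do not say whether the numbers pair the samples, and these few values cannot decide it. The cause of these differences was not tested. Tlr9 had the fewest counts of the members, 38 in its lowest library, and ranged from 0.10 to 0.55.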
